A study of Mus musculus with 2931 samples.

Results

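The Hox genes measured in endothelial cells of the mouse lung are described here. They were taken as every gene symbol made of Hox, a cluster letter from a to d and a number. Of 18072 gene symbols in the count table, 21 matched: 8 of the HoxA cluster, 7 of HoxB, 1 of HoxC and 5 of HoxD.

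RNA was sequenced from 2931 single cells sorted from the distal lung, each a plate-based library cut with the Tn5 transposase, and every cell carried 1 of 10 subtype labels given by the authors. By the gate named in its title, 2694 cells were sorted by CD31, an endothelial surface protein, 224 came from a gate labelled mesench and 13 from a CD45 gate. The mice were of embryonic day E18.5 or of postnatal days P1, P7 or P21 in normal air, or of P7 with the treatment label hyperoxia (raised oxygen, whose level and length are not given in the sources used here). Each of these 5 groups had 1 female and 1 male mouse name (n = 2), and the mouse was the replicate. Whether a mouse name is 1 animal or a pool, and the strain, are not given in the sources used here; no transgene or deletion is named in the labels.

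Hox genes code for homeodomain transcription factors that give cells their position along the body axis. They lie in 4 clusters, and the order of the genes in a cluster matches the order in which they are used from head to tail, with low-numbered genes more anterior. Hox proteins bind DNA together with the TALE homeodomain proteins Pbx, Meis and Pknox, retinoic acid turns on the anterior genes, and the Polycomb and Trithorax groups keep the clusters silent or active. Hoxa5 is known for its part in lung and airway development, and Hoxb5 for branching of the airways and for marking endothelial precursors.

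A cell held between 42095 and 2967985 reads, with medians per mouse from 188610 (male at P7 in normal air) to 928377. Shares of cells with a read were therefore taken after each cell had been thinned to 50000 reads, which left out 11 shallower cells, and each share is a mean over the mice with at least 5 cells of that label. Markers were present to differing degrees. In cells labelled lymphatic, Prox1 and Ccl21a were each read in 96.3% and Flt4 and Mmrn1 in all. In cells labelled venous, Vwf was read in 97.5% and Slc6a2 in 61.7%, and 96.5% had at least 2 of 3 venous genes. Reads of venous genes were common in arterial EC II cells too, though 7.14% of these had at least 2. A single venous gene therefore does not mark venous cells. At least 2 genes of the label's own list were read in 99.4% of Car4+, 99.6% of Early and 87.3% of Late Car4- cells. The shares for their own lists were 90.5% in proliferative, 83.9% in arterial EC I and 100% in arterial EC II cells. At least 2 genes of the Car4- list were also read in 99.0% of venous, 97.7% of nonproliferative embryonic and 97.4% of proliferative cells. They were read in 89.2% of arterial EC I, 73.2% of lymphatic, 66.7% of arterial EC II and 55.4% of Car4+ cells. That list therefore does not mark Car4- cells. Genes found per thinned cell differed between labels, with a median of 1475 in Late Car4- capillaries, 2436.5 in Car4+ capillaries, 2775 in Early Car4- capillaries, 3447 in venous and 3744.5 in lymphatic cells, and their part in shares of cells was not tested. Car4- capillaries below means the Early and Late labels together unless one is named. Reads were also summed over the cells of a class in each mouse, and in such sums fewer cells with a gene and less RNA per cell cannot be told apart. The labels were made by the authors from these same cells, so a difference between labels describes labelled populations and is no independent test of them.

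Of 2920 thinned cells, 1922 (65.8%) had a read of at least 1 Hox gene. Lymphatic cells had 2.94 ± 0.674 Hox genes per cell (SD over 6 mice) and arterial EC II cells 2.03 ± 0.739 (SD over 4 mice). Late Car4- capillaries had 0.561 ± 0.299 (SD over 6 mice), the fewest of the 10 labels, and 53.4% of these cells had no Hox read at all. They also had the fewest genes of any kind per cell. Hoxc4, the only member of its cluster in the table, had 25 reads in 25 cells, 1 in each. The other HoxC genes have no values here, so the cluster as a whole cannot be judged.

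The promoters shown here belong to the genes that carried the results: Hoxa5, the Hox gene found in most cells, and the HoxD genes found in lymphatic cells. Each is the run of 250 bases before the gene's start in RefSeq (GRCm38.p6), printed 5′ to 3′ on the gene's strand. Capitals mark AGGTCA or its reverse complement TGACCT, the core motif of nuclear receptors, a family to which the retinoic acid receptors belong.
Hoxa5 (chr6:52204588-52204837, minus strand): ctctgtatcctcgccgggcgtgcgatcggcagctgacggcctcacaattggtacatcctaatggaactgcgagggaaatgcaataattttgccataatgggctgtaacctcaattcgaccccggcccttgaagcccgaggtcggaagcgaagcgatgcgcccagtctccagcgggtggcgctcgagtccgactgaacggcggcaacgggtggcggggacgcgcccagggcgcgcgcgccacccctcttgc
Hoxd4 (chr2:74721728-74721977, plus strand): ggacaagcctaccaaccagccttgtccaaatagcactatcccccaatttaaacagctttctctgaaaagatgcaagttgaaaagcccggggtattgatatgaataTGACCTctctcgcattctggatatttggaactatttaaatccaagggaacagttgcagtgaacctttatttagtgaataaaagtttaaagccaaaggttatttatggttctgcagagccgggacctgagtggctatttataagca
Hoxd8 (chr2:74704365-74704614, plus strand): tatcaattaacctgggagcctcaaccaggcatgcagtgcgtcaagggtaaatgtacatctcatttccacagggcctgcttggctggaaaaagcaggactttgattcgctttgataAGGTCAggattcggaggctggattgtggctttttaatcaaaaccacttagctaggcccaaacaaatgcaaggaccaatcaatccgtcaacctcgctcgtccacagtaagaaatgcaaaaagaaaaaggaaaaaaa
Hoxd9 (chr2:74697513-74697762, plus strand): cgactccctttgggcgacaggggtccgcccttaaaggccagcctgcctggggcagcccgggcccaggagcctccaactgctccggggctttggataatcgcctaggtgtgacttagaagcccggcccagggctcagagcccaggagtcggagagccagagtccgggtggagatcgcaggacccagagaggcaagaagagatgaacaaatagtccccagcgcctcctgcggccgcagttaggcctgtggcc
Hoxd10 (chr2:74691641-74691890, plus strand): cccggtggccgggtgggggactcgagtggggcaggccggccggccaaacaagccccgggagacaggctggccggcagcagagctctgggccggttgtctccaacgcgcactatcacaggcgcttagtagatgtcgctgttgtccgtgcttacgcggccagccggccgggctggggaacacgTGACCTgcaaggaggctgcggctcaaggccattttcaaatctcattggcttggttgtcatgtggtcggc

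The core motif lay 135 bases before the start of Hoxd8, 145 before that of Hoxd4 and 69 before that of Hoxd10. RefSeq windows from 250 bases before to 50 after the start were at hand for 14 of the 21 genes. In these windows AGGTCA was found on either strand in 4 of 5 HoxD genes (Hoxd3, Hoxd4, Hoxd8 and Hoxd10) and in 7 of 14 Hox genes in all; the match of Hoxa5 lay after its start. Of 32851 mouse promoters of the same length, 16.3% held it. The joint Hox and Pbx motif TGATNNAT was found in 2 of 14 windows (Hoxa2 and Hoxb8) and in 8.85% of all promoters, and the homeodomain motif TAATTA in 0 of 14 and in 5.29%. The windows differed in base composition: Hoxa5 held 29 CpG dinucleotides and Hoxd9 20, against 6 in Hoxd8, 4 in Hoxd4 and a median of 7 over all promoters. These matches are letters in a window, and binding was not measured.

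**Figure D1:**
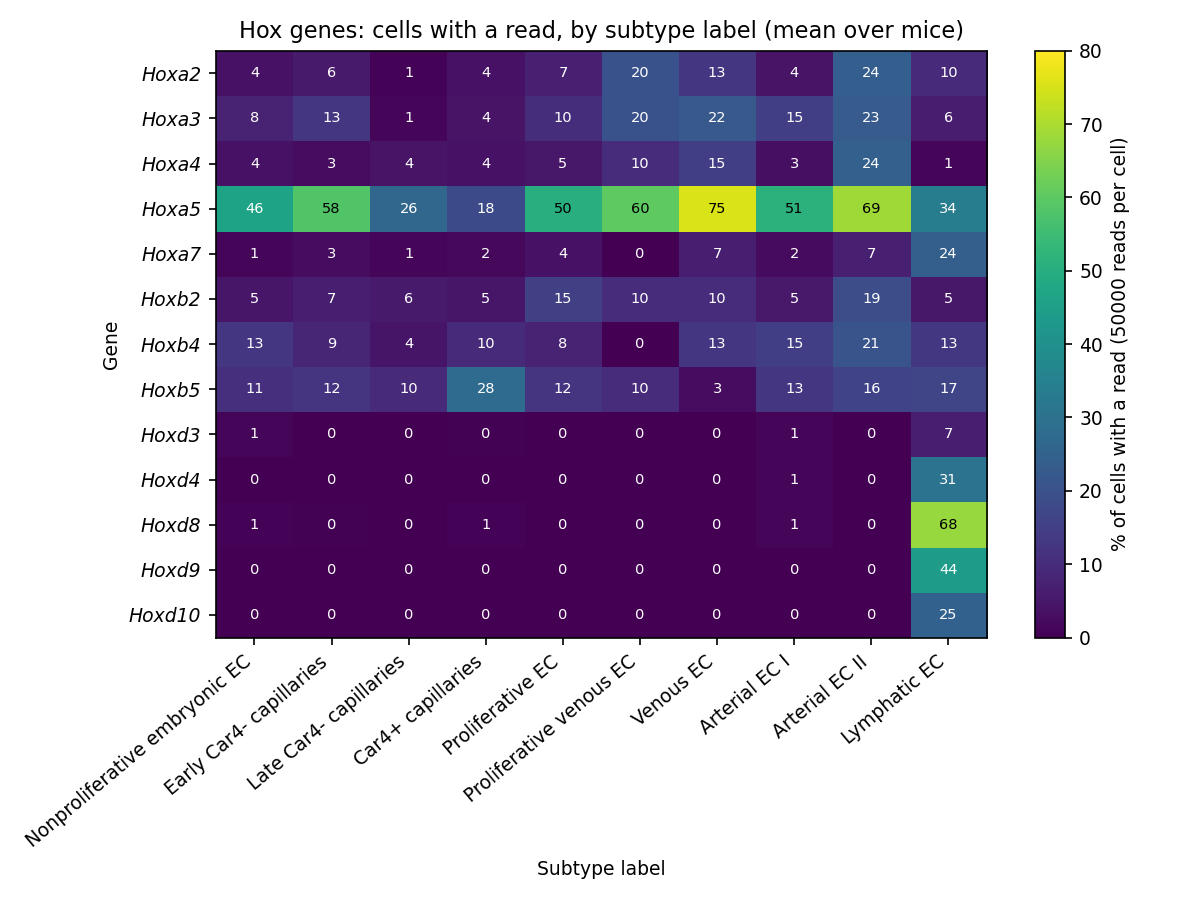
Share of cells with a read of Hoxd3 and of the 12 Hox genes read in at least 10% of cells under a label (rows) under each of the 10 subtype labels (columns), in percent after thinning to 50000 reads per cell, as a mean over mice with at least 5 cells of the label. Hoxa5 stands out across labels, and the HoxD genes stand out in lymphatic EC alone.

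Hoxa5 was the most widely read Hox gene. It was read in 1542 of 2931 cells at full depth (52.6%), and in 1376 cells (46.9%) with at least 5 reads. Per kilobase of exon it had 68.1 CPM (reads per 1000000) over all cells, against 8.06 for Hoxb5, 5.38 for Hoxa2, 5.17 for Hoxa4 and 4.93 for Hoxb4, the next in order. Hoxa5 (ENSMUSG00000038253.6, chr6:52201754-52204587, minus strand, GENCODE M21 on GRCm38) shares no exon base with another gene of that annotation.

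The share of cells with a Hoxa5 read was 75.4% ± 14.4 in venous cells (SD, n = 9 mice), 68.6% ± 13.7 in arterial EC II (n = 4), 58.1% ± 10.8 in Early Car4- capillaries (n = 6), 51.5% ± 20.2 in arterial EC I (n = 7), 50.01% ± 12.3 in proliferative cells (n = 9) and 46.4% ± 5.05 in nonproliferative embryonic cells (n = 2). Lower shares were found in lymphatic cells at 33.9% ± 12.1 (n = 6), in Late Car4- capillaries at 26.4% ± 15.9 (n = 6) and in Car4+ capillaries at 18.1% ± 8.07 (n = 8). Neighbours in this order differed by less than the larger SD of the pair, except nonproliferative embryonic and lymphatic cells, whose step exceeded both SDs. The 10 proliferative venous cells came from 2 mice with 40% and 80%.

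Car4+ capillaries, which carry carbonic anhydrase 4 and lie close to the alveolar epithelium, had less Hoxa5 than the Car4- capillaries of the same mice. At P1 the summed reads gave 33.5 and 118 CPM in Car4+ capillaries of the female and male mouse, against 163 and 332 in their Car4- capillaries. At P7 in normal air the values were 26.8 and 51.7 CPM against 98.6 and 145. Under hyperoxia they were 12.7 and 30.5 CPM against 78.7 and 117, and at P21 they were 21.1 and 6.35 CPM against 131.8 and 68.5. The Car4+ value was the lower one in 8 of 8 mice.

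Of 9 Hox genes tested in this comparison, 1 was called, where 9.04% of 11858 genes were called. Hoxa5 fell by 2.01 on the log2 scale (SE 0.272, adjusted p = 0.000687, edgeR's quasi-likelihood test with Benjamini-Hochberg adjustment over all genes), and it was called in 16 of 16 alternatives. The median change of all genes tested was -0.30. By shares of cells tested with limma, where 19% of genes were called, 2 Hox genes were called, Hoxa5 and Hoxb5.

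Hoxb5 went the other way. It was read in 28.1% ± 12.5 of Car4+ capillary cells (n = 8), the highest share among the 10 labels, and in 12.1% ± 4.99 of Early (n = 6) and 9.72% ± 12.3 of Late Car4- capillaries (n = 6). In summed reads the female and male mice had 31.0 and 89.9 CPM in Car4+ capillaries at P1, 46.0 and 10.5 at P7, 51.9 and 19.9 under hyperoxia and 106.8 and 45.9 at P21. In the Car4- capillaries of these mice the values were 16.6 and 29.3, 13.2 and 7.59, 23.1 and 26.7, and 21.8 and 33.6 CPM. The Car4+ value was higher in 7 of 8 mice, the male mouse under hyperoxia being the exception. The log2 difference of 1.25 (SE 0.381) did not pass the test over all mice (edgeR adjusted p = 0.0638). It was 1 of 4 Hox genes called with DESeq2, where 22.3% of genes were called, and 1 of 2 called with limma on shares. It was called with CD31-gate cells alone (9.21% of genes called) and without the male hyperoxia mouse (7.07%), each time beside Hoxa5. Pooled over mice, of 88 Car4+ cells with a Hoxb5 read 13.6% had Hoxa5, and of 244 without it 15.98%. In this pool the share of cells with Hoxa5 was thus much the same with and without Hoxb5.

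**Figure D2:**
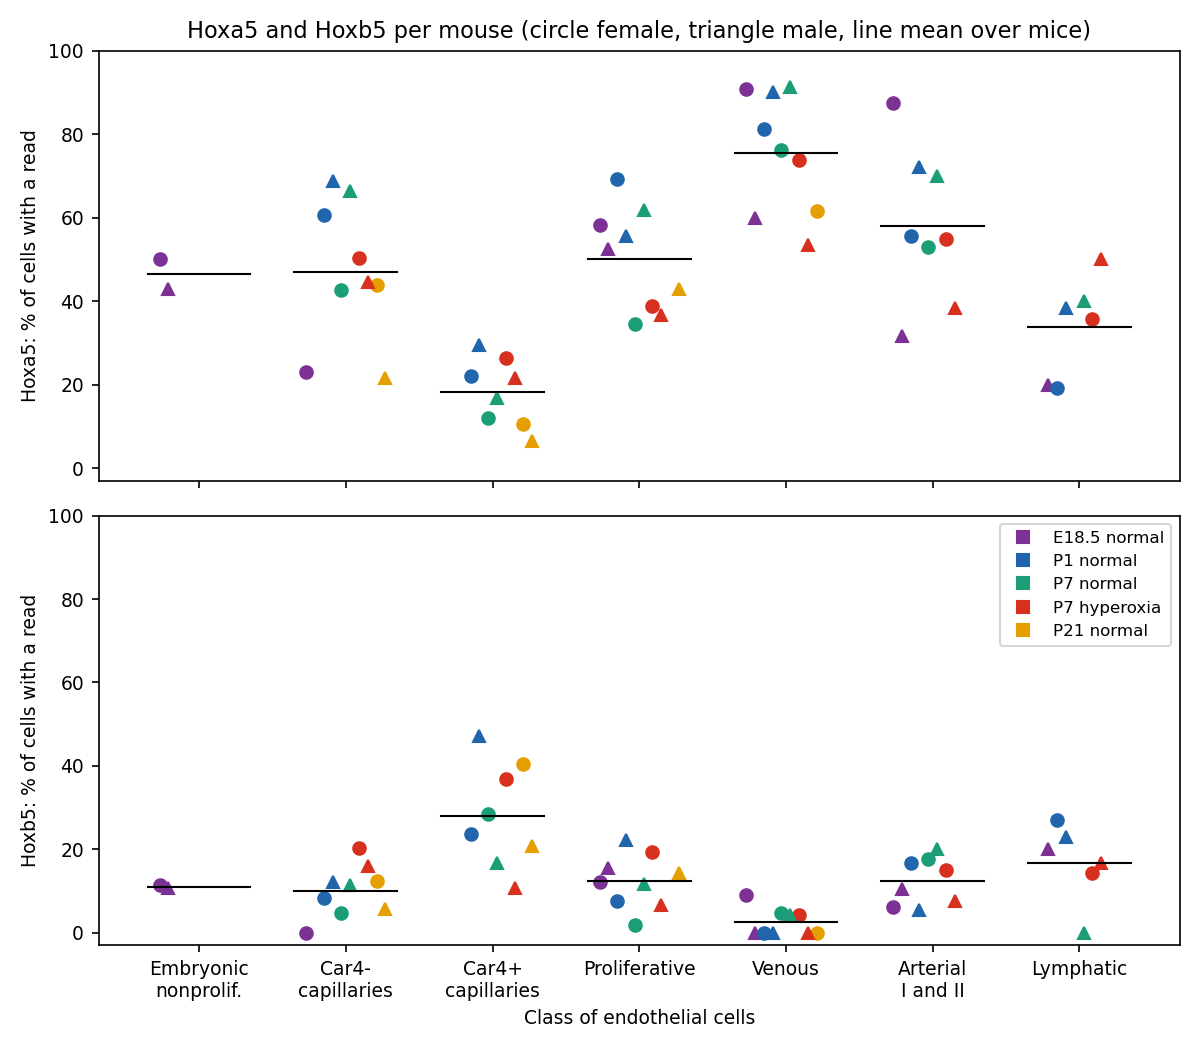
Share of cells with a read of Hoxa5 (top) and Hoxb5 (bottom) in percent, 1 point per mouse and class with at least 5 thinned cells, coloured by group; circles are females, triangles males and lines means over mice. Hoxa5 is lowest in Car4+ capillaries (6.49% to 29.4%) and highest in venous cells (53.3% to 91.3%), while Hoxb5 is highest in Car4+ capillaries (10.8% to 47.1%) and near 0 in venous cells.

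Venous cells had the reverse pair, with much Hoxa5 and almost no Hoxb5. Hoxb5 was read in 4 of 201 thinned venous cells, a mean of 2.51% ± 3.29 (n = 9 mice), and 5 of the 9 mice had none. Over the 7 mice that enter the comparison with Car4- capillaries the level was 1.41 ± 1.93 CPM against 19.7 ± 7.71 CPM (SD), lower in 7 of 7 mice. Hoxb5 was the 1 gene called of 9 Hox genes tested, where 6.98% of 12159 genes were called, and it fell by 5.02 on the log2 scale (SE 1.32, edgeR adjusted p = 0.0465). That call was lost in 5 of the 7 fits that left out 1 mouse, the highest adjusted p being 0.131, with a log2 difference between -5.74 and -4.37 in each. Hoxa5 was at 186.2 ± 99.0 CPM in venous cells against 152 ± 84.2 CPM, higher in 6 of 7 mice, a log2 difference of 0.39 (SE 0.148, edgeR adjusted p = 0.182).

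The anterior HoxA genes Hoxa2, Hoxa3 and Hoxa4, which pattern the hindbrain and neck region of the embryo, were read most often in venous and arterial EC II cells among the labels of at least 20 cells. In venous cells Hoxa3 was read in 22.2% ± 12.1, Hoxa4 in 14.8% ± 11.2 and Hoxa2 in 12.8% ± 9.57 (n = 9). In arterial EC II they were read in 23.1% ± 20.6, 24.4% ± 19.1 and 23.9% ± 17.5 (n = 4 mice, 42 cells). In arterial EC I Hoxa2 and Hoxa4 were read in 4.12% ± 5.47 and 3.23% ± 5.78 (n = 7), and these ranges overlap those of arterial EC II. In Late Car4- capillaries Hoxa2 and Hoxa3 were read in 0.812% ± 1.3 and 1.31% ± 1.67 (n = 6). By summed reads none of the 3 genes was called in venous cells. By shares of cells, limma called Hoxa3, Hoxa4 and Hoxa5 higher and Hoxb5 lower in venous cells, where it called 43.1% of all genes, so a call of 4 of 9 is near the background.

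In venous cells pooled over mice, ages and hyperoxia, Hoxa3 was read in 28.1% of 153 cells with a Hoxa5 read. It was read in 10.4% of 48 cells without one. The part of differences between mice in this was not tested. The cells with Hoxa5 also had more genes of any kind, with a median of 3616 against 2825.5, and the part of that in the difference was not tested. Exons of Hoxa3 overlap those of other genes over 27.1% of their length, among them the antisense genes Hoxaas2 and Hoxaas3. Whether counting used the strand is not given in the sources used here, so reads of Hoxa3 and of its antisense partners cannot be told apart.

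In arterial cells (EC I and II together, 6 mice) 0 of 9 Hox genes were called against Car4- capillaries, where 1.97% of 11569 genes were called, and 0 had an unadjusted p under 0.05. DESeq2, which called 13% of genes, and limma on shares, which called 6.81%, also called 0. Hoxa5 was at 121.5 ± 75.7 CPM against 155.8 ± 91.7 CPM, lower in 6 of 6 mice (log2 difference -0.31, SE 0.197, edgeR adjusted p = 0.544), while its share of cells was higher in 4 of 6. Hoxa4 was at 25.9 ± 33.0 CPM against 5.33 ± 4.8 CPM, with a spread wider than its mean.

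In proliferative cells 0 of 9 Hox genes were called against Car4- capillaries with edgeR, where 2.92% of 12011 genes were called, and 1 had an unadjusted p under 0.05. That was Hoxa5, at 89.8 ± 68.3 CPM against 143 ± 90.0 CPM and lower in 7 of 7 mice, with a log2 difference of -0.77 (SE 0.214, edgeR adjusted p = 0.107) beside a median of -0.39 over all genes. DESeq2, which called 13.4% of genes, called 2 Hox genes lower, Hoxa5 and Hoxa7, and edgeR on thinned cells, which called 4.57%, called Hoxa5 alone. Limma on shares, which called 21.9% of genes, called Hoxb2 higher: it was read in 16.9% ± 10.4 of proliferative cells and in 6.12% ± 3.06 of Car4- cells of the same 7 mice. Exons of Hoxb2 overlap the antisense Hoxb3os over 27.3% of their length.

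The HoxD genes were found in lymphatic cells and hardly elsewhere. The 82 lymphatic cells were 2.80% of all cells and held 99.5% of the Hoxd9 reads, 99.1% of the Hoxd10 and of the Hoxd4 reads, 91.0% of the Hoxd3 reads and 86.1% of the Hoxd8 reads. At full depth Hoxd8 was read in 63 of 82 lymphatic cells (76.8%) with a median of 94 reads in these, and in 41 of 2849 other cells (1.44%) with a median of 1 read. Hoxd9 was read in 44 lymphatic cells with a median of 57.5 reads and in 17 other cells with a median of 1. Hoxd4 was read in 41 and 13 cells, Hoxd10 in 25 and 12, and Hoxd3 in 19 and 27. At least 5 reads of Hoxd9 or of Hoxd10 were found in 0 of 2849 other cells, and at least 5 reads of Hoxd8 in 5.

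Lymphatic cells often held several HoxD genes at once. Of the 82 cells 55 had at least 2 of the 5 genes at full depth, 18 had 4 and 4 had all 5. Hoxd3 and Hoxd4, whose exons overlap, were counted as separate genes. Of the 2849 other cells 104 had 1 HoxD gene, 3 had 2 and 0 had 3 or more. After thinning, at least 1 HoxD gene was read in 66 of 82 lymphatic cells (80.5%) and in 21 of 2838 others (0.740%). The 16 lymphatic cells with no HoxD read held fewer genes of any kind, with a median of 2089.5 genes against 4018 in the other 66. They carried the lymphatic markers too, Prox1 in 93.8% and Flt4 in all.

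**Figure D3:**
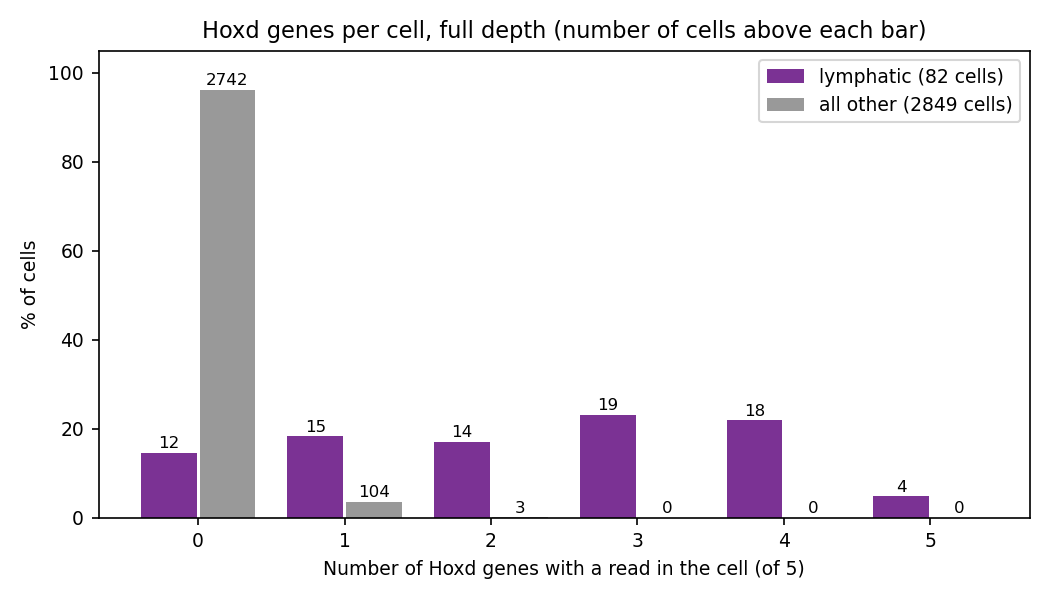
Number of the 5 HoxD genes with a read in a cell at full depth (horizontal) and percent of cells (vertical), for 82 lymphatic cells (purple) and 2849 other cells (grey), with the number of cells above each bar. Most lymphatic cells hold 1 to 4 HoxD genes, while 2742 of the other cells hold none.

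The pattern held in every mouse with at least 5 lymphatic cells. Hoxd8 was read in 60% of the 10 lymphatic cells of the male mouse at E18.5, in 69.2% and 61.5% of those of the female and male mouse at P1, in 60% of 5 cells of the male mouse at P7, and in 71.4% and 83.3% under hyperoxia. In summed reads these mice had 97.1, 176.4, 60.2, 176.1, 168.6 and 289.5 CPM of Hoxd8. Hoxd9 stood at 15.2, 80.6, 41.5, 127.3, 83.8 and 76.5 CPM in the same order, and Hoxd4 at 13.7, 46.8, 28.8, 17.5, 41.9 and 33.2 CPM. Hoxd10 was at 2.46, 46.0, 11.3, 27.8, 40.6 and 0 CPM, the 0 being that of the 6 cells of the male hyperoxia mouse. The E18.5 mouse had the lowest Hoxd9 and Hoxd4 of the 6 mice; it was the only one at that age, so no test of age was made.

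Against the Car4- capillaries of the same 5 postnatal mice, 4 HoxD genes passed the filter on low counts, and they passed it only through the lymphatic cells. A call of such a gene is fixed by the filter, so their values are given as a description with no test. Hoxd8 had 6639 reads in lymphatic and 169 in Car4- cells, or 338 times more per read sequenced (95% counting interval 290.1 to 396). Of those 169 reads 158 were from the male hyperoxia mouse. Hoxd9 had 3228 against 2 reads, a ratio of 13885 (3841 to 114700), and Hoxd4 1714 against 2, a ratio of 7373 (2038 to 60926). These intervals cover counting error only, since copies made by PCR are not independent molecules. All 3 genes were higher in 5 of 5 mice.

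Hoxd3 had 347 against 16 reads, a ratio of 187 (113 to 330.1), and 62.8% of its exon bases are shared with Hoxd4, the antisense Hoxd3os1 and others, so part of its reads may belong to them. Hoxd4 has 52.3% of its exon bases shared, with Hoxd3 and Hoxd3os1 among others, so the same limit holds for the Hoxd4 values above. Hoxd10 had 1280 against 5 reads, a ratio of 2202 (941 to 6794) and did not pass the filter on low counts. Hoxd3os1, an antisense RNA of the HoxD cluster (chr2:74703248-74716130, minus strand) named here after its values were seen, was read in 68.3% of lymphatic and 0.772% of other cells at full depth. Hoxd8 and Hoxd9, the leading pair, share no exon base with it.

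**Figure D4:**
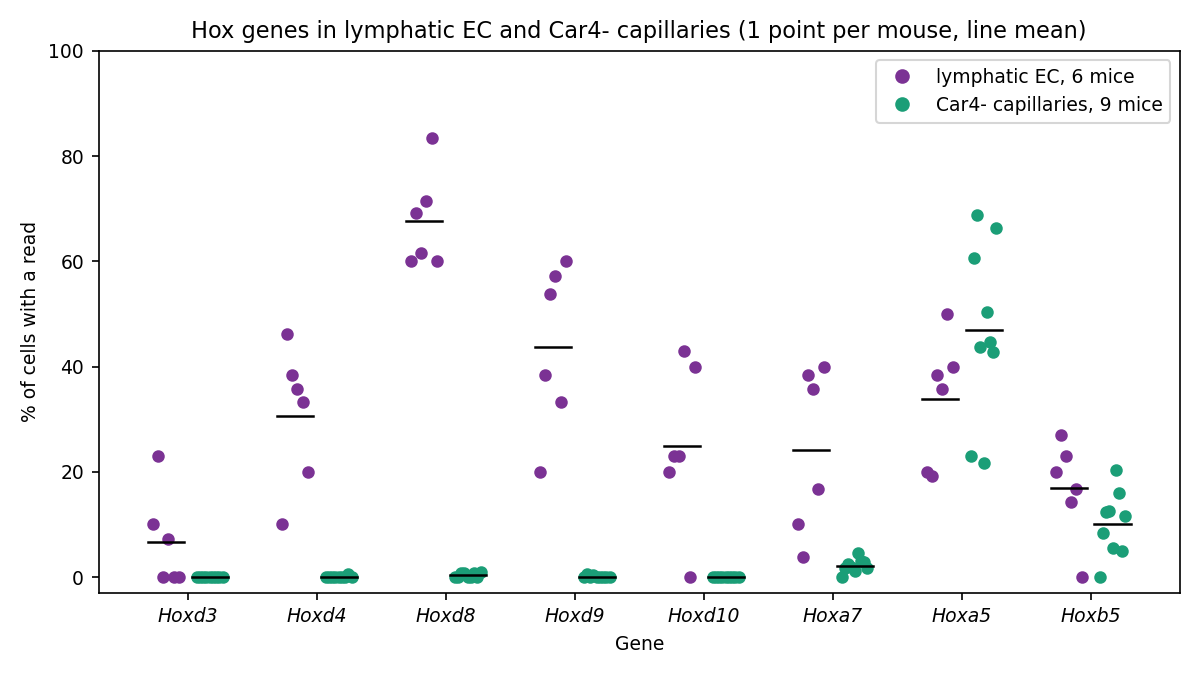
Percent of cells with a read after thinning for 8 Hox genes, 1 point per mouse, in lymphatic cells (purple, 6 mice) and Car4- capillaries (green, 9 mice), with lines at the means. Hoxd8 lies between 60% and 83.3% in lymphatic cells and below 1% in Car4- capillaries, and the ranges of Hoxa5 overlap.

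Of the 8 Hox genes tested outside HoxD, 1 was called in lymphatic cells, where 9.04% of 11930 genes were called. That gene, Hoxa5, was at 29.9 ± 20.3 CPM against 167 ± 97.6 CPM in Car4- capillaries (SD, n = 5 mice), lower in 5 of 5 mice, and fell by 2.79 on the log2 scale (SE 0.652, edgeR adjusted p = 0.0339). Its share of cells was lower in 4 of 5. The call was lost in 4 of 5 fits that left out 1 mouse, where the log2 difference ran from -3.20 to -2.25 and the adjusted p up to 0.118. Hoxa7, a gene of the trunk, was at 39.1 ± 16.6 CPM against 8.57 ± 5.8 CPM, higher in 5 of 5 mice, and was not called with edgeR (log2 difference 2.16, SE 0.88, adjusted p = 0.202). Limma on shares, which called 27% of all genes, called Hoxa5 and Hoxa7 outside HoxD. DESeq2, which called 21.3%, called these 2 and Hoxa3 and Hoxa4. Hoxa3 was at 0.871 ± 1.31 CPM against 17.4 ± 9.29 CPM, lower in 5 of 5 mice (edgeR adjusted p = 0.0737).

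Genes of fibroblasts were also more frequent in lymphatic cells. At least 2 of 10 fibroblast and mesenchyme genes were read in 14.6% of lymphatic cells (12 of 82), against 2.74% of Car4- and 6.47% of venous cells. The summed level of that list ran from 24 to 4028 CPM over the 6 mice in lymphatic cells and from 0 to 94.8 over the 9 mice in Car4- capillaries. All 12 marked cells were among the 66 with a HoxD read. Without every such cell edgeR still called Hoxa5 lower. At least 2 of 3 proliferative genes were read in 31.7% of lymphatic cells (26 of 82), against 2.99% of Early and 0.161% of Late Car4- cells. A HoxD read was found in 84.6% of these 26 cells and in 78.6% of the other 56, and a Hoxa5 read in 38.5% and 23.2%. The part of proliferative cells in the difference of Hoxa5 was not tested.

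The partners and regulators of Hox genes were read from 5 lists. Of 9 TALE cofactors, 7 were tested within mice. Meis1 rose in Car4+ capillaries by 1.37 on the log2 scale (SE 0.204, edgeR adjusted p = 0.00129), to 225 ± 160.3 CPM from 90.2 ± 36.6 CPM, higher in 8 of 8 mice. In venous cells it fell by 2.69 (SE 0.378, adjusted p = 0.00152), to 18.1 ± 21.4 CPM, lower in 7 of 7 mice. In Car4+ capillaries Meis2, the TALE gene with the most reads (112.6 ± 45.8 CPM over all cells, n = 10 mice), fell by 1.75 (SE 0.323, edgeR adjusted p = 0.00457). Pknox2 fell by 7.29 there (SE 1.08, edgeR adjusted p = 0.00125). Of the 7 TALE genes, edgeR called 1 higher and 2 lower in Car4+ capillaries, where 9.04% of all genes were called. In venous cells it called 1 higher and 1 lower (6.98% of all genes), and in arterial cells 1 higher (1.97%). The genes called higher in venous and arterial cells are not named here. No TALE gene was called in lymphatic or proliferative cells. A list of 7 is too short to set against these shares.

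Of 16 Polycomb genes, Ezh2, the methyltransferase of the complex, was the one called: it fell by 3.10 in Car4+ capillaries (SE 0.75, edgeR adjusted p = 0.0217) and rose by 1.80 in proliferative cells (SE 0.303, adjusted p = 0.00868), and its level is known to follow cell division. Phc2 had the most reads of the list, 102.7 ± 29.5 CPM. Of 7 Trithorax and demethylase genes, of which Kdm6b had the most reads (230.8 ± 118.5 CPM), 0 were called with edgeR in the 5 comparisons; 1 had an unadjusted p under 0.05 in lymphatic and 1 in proliferative cells. Of 12 genes of retinoic acid and upstream factors 9 were in the table and up to 5 were tested. Cyp26b1, which breaks down retinoic acid, had the most reads of the list. It was at 22.9 ± 18.7 CPM in Car4- and 0.114 ± 0.159 CPM in lymphatic cells (n = 5 mice). In Car4+ capillaries it fell by 5.44 (SE 1.13, edgeR adjusted p = 0.00958), and the Car4- values of the 8 mice ran from 0.955 to 700.7 CPM. Of 15 noncoding RNAs of the clusters 6 were in the table, led by Hotairm1 at 26.0 ± 13.4 CPM. Hoxaas2 was at 2.501 ± 0.775 CPM in Car4- and 0.0778 ± 0.174 CPM in lymphatic cells. Both Cyp26b1 and Hoxaas2 were near 0 in lymphatic cells and passed the filter on low counts through the Car4- cells. Their lymphatic values are therefore given as a description with no test. Of all genes tested, edgeR called 9.04% in Car4+ capillaries, 9.04% in lymphatic and 2.92% in proliferative cells. Ezh2 was 1 of 16 genes tested in its list, Cyp26b1 1 of 5 and Hoxaas2 1 of 4. Such single calls are too few to set a list against these shares.

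In Car4- capillaries, Early and Late labels together, the share of cells with a Hoxa5 read was 64.7% ± 5.87 at P1, 54.5% ± 16.7 at P7 and 32.7% ± 15.6 at P21 (SD, n = 2 mice each), with 60.6% and 68.9% in the P1 mice, 42.7% and 66.4% in the P7 mice and 43.8% and 21.6% in the P21 mice, female first. The ranges of P1 and P21 do not overlap, and those of P7 and P21 do. The labels changed with age: Late cells were 11.7% and 1.64% of the Car4- cells of the P1 mice, 21.4% and 1.77% at P7 and 98.5% and 98.9% at P21, so over both labels age and label cannot be told apart. Within the Early label Hoxa5 was read in 66.7% and 69.2% of cells at P1 and in 50.6% and 67.6% at P7. Within the Late label it was read in 14.3% of 21 cells of the female P1 mouse, 13.6% of 44 of the female P7 mouse, and 42.9% of 268 and 21.1% of 265 cells of the P21 mice, so the P21 values there were not the lower ones. Shares of most genes were lower at P21: among 14660 genes 81.1% had a lower share at P21 than at P7, and the median ratio of shares was 0.574 among genes read in at least 10% of cells at P7, against 0.599 for Hoxa5. Against P1 78.0% were lower, the median ratio was 0.618 and that of Hoxa5 0.505, lower than in all but 24.5% of genes.

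By summed reads Hoxa5 was at 248 ± 120.1 CPM at P1, 122 ± 32.9 at P7 and 100.2 ± 44.7 at P21. Of 12 Hox genes tested in Car4- capillaries, 0 were called between P21 and P1, where 0.368% of 14660 genes were called, 0 between P21 and P7 (0.266%) and 0 between P7 and P1 (0% of genes). The numbers with an unadjusted p under 0.05 were 1, 2 and 1, and neither DESeq2 nor limma on shares called any. Hoxa5 changed by -1.38 from P1 to P21 (SE 0.482, edgeR adjusted p = 0.263), and by -1.19 from P1 to P7 (SE 0.48, adjusted p = 0.407). Hoxb4 and Hoxb5 were the pair with an unadjusted p under 0.05 from P7 to P21, at log2 differences of 2.52 (SE 1.09) and 1.55 (SE 0.668). The median log2 difference of the 12 Hox genes was -1.14 from P1 to P7 and 1.15 from P7 to P21, against -0.04 and 0.06 over all genes. In the first step 10 of 12 were below 0, against 7544 of all 14660 genes. In the second 8 of 12 were above 0, against 52.7% of all genes. Both steps share the P7 mice.

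Sequencing run and sort gate could be held fixed for part of this. In CD31-gate cells of 1 run, Hoxa5 was read in 23.4% of 184 Car4- cells of the male P21 mouse and 67.6% of 108 of the male P7 mouse, and in 46.6% of 221 cells of the female P21 mouse and 60.9% of 179 of the female P1 mouse. Label still changed with age in these pairs. Median genes per thinned cell, over all cells of a mouse, were 1316 and 3318 in the male P21 and P7 mice. They were 2134 and 3227 in the female P21 and P1 mice, and their part was not tested. At P21, cells of the gate labelled mesench gave 30% of 50 and 18.1% of 83 cells, against 46.6% and 23.4% in the CD31 gate of the same mice, and they came from other runs.

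In Car4+ capillaries the Hoxa5 share was 25.7% ± 5.22 at P1, 14.3% ± 3.37 at P7 and 8.51% ± 2.85 at P21, and Hoxb5 stood at 35.4% ± 16.5, 22.6% ± 8.42 and 30.6% ± 13.8. Among 12284 genes 67.7% had a lower share at P21 than at P7 in these cells. The median ratio of shares was 0.748 among genes read in at least 10% of cells at P7. That of Hoxa5 was 0.596, and 26.0% of genes had a lower ratio. Of 11 Hox genes tested 0 were called by edgeR at P7 against P1 (0% of 12284 genes called) and 0 at P21 against P7 (0.00814%), with 2 and 0 at an unadjusted p under 0.05. DESeq2, which called 2.08% of genes, called 2, Hoxa2 and Hoxb4, lower at P7 than at P1. Hoxa2 was at 2.71 and 75.2 CPM in the P1 mice and at 0 and 0.388 CPM in the P7 mice, and Hoxb4 at 9.84 and 72.0 against 0.408 and 1.81 CPM. The high value of both was that of the male P1 mouse, from 17 cells.

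Before birth, the nonproliferative embryonic cells of E18.5 were set against the Car4- capillaries of P1 and no Hox gene differed past the test. Hoxa5 was read in 50% and 42.9% of their cells, Hoxb4 in 12.9% and 12.5% and Hoxb5 in 11.4% and 10.7%. Of 13 Hox genes tested 0 were called by edgeR, where 0.494% of 14967 genes were called, 0 had an unadjusted p under 0.05, and DESeq2 and limma called 0; age and label change together in this comparison. In venous cells at P1 against E18.5 0 of 9 were called (0.0162% of genes) and in proliferative cells at P7 against E18.5 0 of 11 (0.0458%), with 0 at an unadjusted p under 0.05 in both and 0 by DESeq2 or limma.

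Hyperoxia changed no Hox gene past the test with edgeR, DESeq2 or limma. Of the Hox genes tested, 0 of 12 were called in Car4- capillaries (0.0136% of 14660 genes called by edgeR), 0 of 11 in Car4+ capillaries, 0 of 9 in venous cells and 0 of 11 in proliferative cells (0% of genes in each of these 3). An unadjusted p under 0.05 was found once, for Hoxb2 in Car4+ capillaries. Hoxa5 was at 98.1 ± 27.4 CPM in Car4- capillaries under hyperoxia and 122 ± 32.9 in normal air (n = 2 each), a log2 difference of -0.33 (SE 0.474). In venous cells it was at 98.1 and 101.6 CPM under hyperoxia and at 177.6 and 197.3 in normal air (log2 difference -0.89, SE 0.594, edgeR adjusted p = 1). Hoxb5 was at 23.1 and 26.7 CPM in Car4- capillaries under hyperoxia and at 13.2 and 7.59 in normal air (log2 difference 1.23, SE 0.663, edgeR adjusted p = 0.894). With 2 mice against 2, many genes separate in this way by chance, and their share over all genes was not counted. In lymphatic cells only 1 mouse in normal air had 5 cells at P7, so no comparison was made there.

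**Figure D5:**
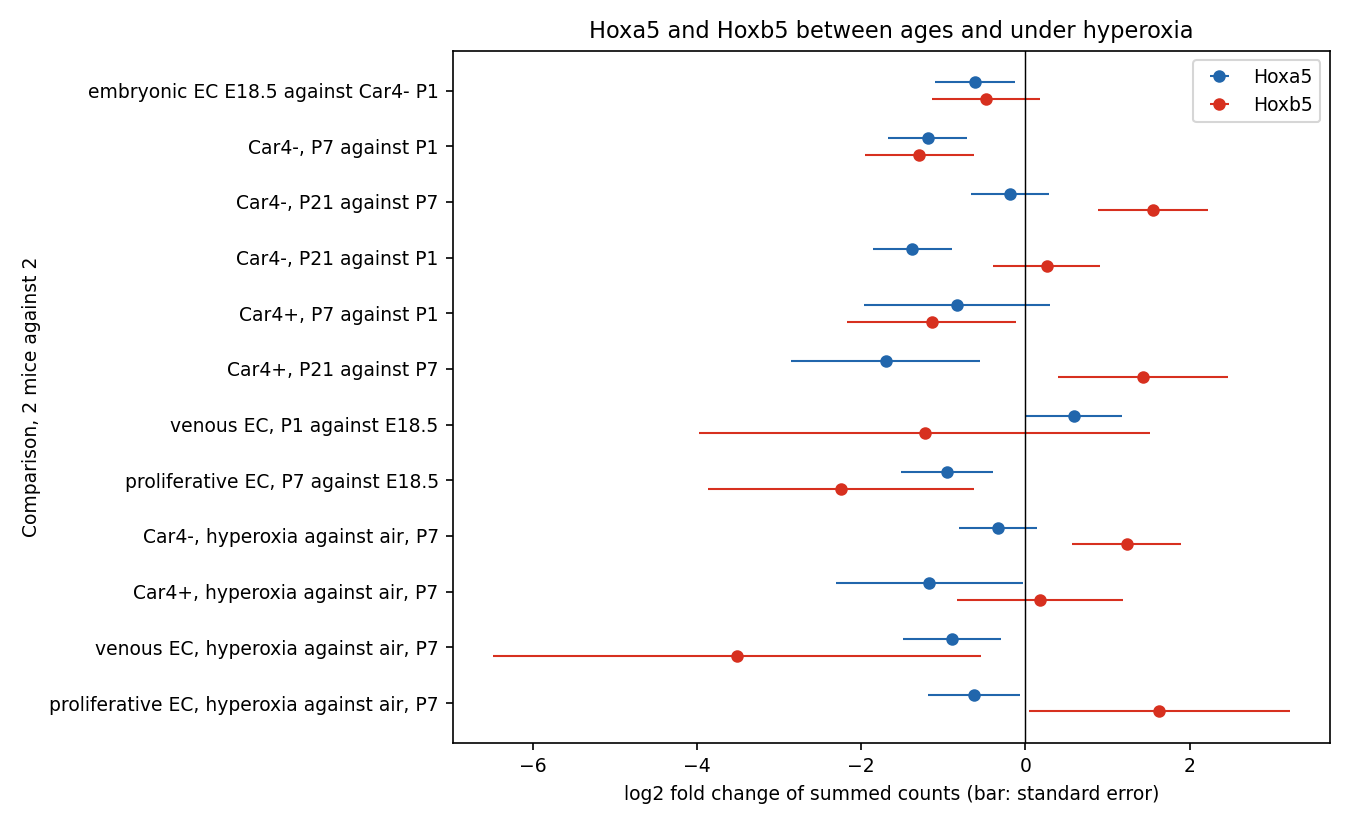
Log2 fold change of summed counts (horizontal; bars are standard errors) of Hoxa5 (blue) and Hoxb5 (red) in the 12 comparisons between ages and under hyperoxia (vertical), each of 2 mice against 2. No point passed the test after adjustment, and the Hoxa5 change from P1 to P21 in Car4- capillaries lies at -1.38.

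The 9 other Hox genes, Hoxa6, Hoxa9, Hoxb3, Hoxb6, Hoxb7, Hoxb8, Hoxc4 and Hoxd3 among them, were rare. They were each read in 15 to 134 cells at full depth (0.512% to 4.57%), and their highest mean share under any label of at least 20 cells was 6.70%, that of Hoxd3 in lymphatic cells. Hoxb3 shares 52.9% of its exon bases with the antisense Hoxb3os. Hoxa9 and Hoxb8 had a median of 1 read in the 26 and 29 cells that held any. A level near 1 read per cell cannot be told from stray reads at this depth.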

How the data were processed

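Per the labels, single cells of distal lung were sorted into plates and made into libraries with the Tn5 transposase. The authors deposited whole-number read counts per gene symbol and cell; molecular identifiers and a doublet filter are not given in the sources used here. The submitters' processing notes name STAR 2.5.2b, HTSeq 0.10 and the build GRCh38. That build is human while organism and symbols are mouse, so positions, exon lengths and overlaps were taken from GENCODE M21 on GRCm38 and may differ from those used for counting.

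Counts were summed per mouse and class, with at least 8 cells per mouse between groups and at least 5 within mice, and tested with edgeR 4.0.16 (TMM, filterByExpr, quasi-likelihood test, Benjamini-Hochberg over all genes tested, threshold 0.05). The standard error is the log2 fold change over the square root of F. Between groups all groups of a class share 1 spread; within mice the mouse is a term and postnatal mice enter. CPM are reads per 1000000 of the sum. Shares use cells thinned to 50000 reads. Counting intervals are 95% exact. Nothing in the labels says that mice came from separate litters, so p-values measure the spread between these mice. Alternatives were DESeq2 1.42.0, RLE, no filter, CD31-gate cells alone, cells without fibroblast markers, thinned cells, limma 3.58.1 on arcsine-transformed shares, sex or mouse as a block and leaving out each mouse. Scripts were tested on simulated counts.

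Hox genes named are those read in at least 10% of cells under a label of at least 20 cells, and those called. For the lists they are the genes called, some TALE calls left out, and the one with the highest mean CPM over mice. Some members and list genes are not reported here by name. The members, lists and tests were chosen with earlier results of these data known.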

Additional observations from a re-analysis of the deposited data

Results flagged for a closer look

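Shares of cells with a Hoxa5 or Hoxb5 read under hyperoxia and in normal air at P7 differed in opposite directions between some classes of cells. This was judged by the hyperoxia mouse minus the normal-air mouse of the same sex. Only these genes were screened, over every pair of the Car4-, Car4+, venous, proliferative and arterial classes. With 1 pair of mice per sex some opposite signs come by chance, and their expected number was not worked out. Hoxa5 was higher by 14.4 and 4.95 percentage points in Car4+ capillaries of the female and male pair and changed by -2.28 and -38.0 points in venous cells, a gap of 29.8 points between the means that rests mostly on the male venous pair. In the other classes the Hoxa5 pairs differed in sign, with 7.61 and -21.7 points in Car4- capillaries, 4.34 and -25.1 in proliferative and 2.06 and -31.5 in arterial cells. Hoxb5 was higher by 15.4 and 4.40 points in Car4- capillaries and changed by -0.414 and -4.35 points in venous cells (a gap of 12.3 points) and by -2.65 and -12.3 points in arterial cells (a gap of 17.4 points). The Hoxb5 pairs differed in sign in Car4+ capillaries (8.27 and -5.86) and in proliferative cells (17.6 and -5.10). Genes found per thinned cell also differed within the pairs. Over all cells of a mouse the median was 2295 in normal air and 3317.5 under hyperoxia in the females. In the males it was 3318 and 2478.5. The CD31-gate cells of the female pair came from different runs. The part of these differences in the shares was not tested. The differences between classes were not tested either, and each class has 1 pair per sex. The summed reads of Hoxa5 in Car4+ capillaries ran the other way, with a log2 difference of -1.17 (SE 1.14).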

How the results depend on the processing

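Of the 17 counts of Hox genes called, 12 stayed within 1.5 times or at 0 under all alternatives. With DESeq2 2 Hox genes were called in Car4+ capillaries at P7 against P1, 4 in Car4+ against Car4- capillaries, 8 in lymphatic and 2 in proliferative cells. Limma on shares called 2 in Car4+, 4 in venous and 1 in proliferative cells, CD31-gate cells alone 2 in Car4+ capillaries, and thinned cells 1 in proliferative cells. Leaving out each mouse in turn gave 1 to 2 in Car4+, 0 to 1 in venous and 3 to 7 in lymphatic cells; the cause was not tested. The HoxD calls among the lymphatic counts are fixed by the filter on low counts, and nothing is read from them. Sex labels do not mark litters, and the female minus male differences of the groups correlated between -0.0411 and 0.115 across genes in Car4- capillaries. With sex as a replicate block 0 Hox genes were called in each comparison of ages and of hyperoxia, and with no replicate block 6 were called in lymphatic cells, against 5. Of 120 shares of cells, 37 moved by more than 1 SD between mice at full depth, 8 with at least 5 reads, 1 without fibroblast-marked cells and 0 with CD31-gate cells alone. Over all genes, DESeq2 called more in every comparison, for example 2644 against 1072 in Car4+ capillaries, 2544 against 1078 in lymphatic cells and 890 against 54 between P21 and P1 in Car4- capillaries, and limma on shares called 5246 against 849 in venous cells. Between P21 and P1 in Car4- capillaries 99 genes were called from thinned cells and 89 without the filter on low counts, and without fibroblast-marked cells 588 were called in lymphatic cells. Few lymphatic cells (5 to 26 per mouse) limit those values.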
